A study of Mus musculus with 59 samples.

Results

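Hippocampal transcriptomes of APOE4 and APOE3 females were compared at the youngest stage of the series, 6M-Reg, in which the animals were 6 months old and still had regular estrous cycles by daily vaginal cytology. The libraries were chosen by their group labels alone, 6 of genotype hAPOE4/hAPOE4 and 6 of genotype hAPOE3/hAPOE3, which makes 12 of the 59 libraries of the series. All of these animals were homozygous for a targeted replacement of the mouse Apoe gene by a human APOE allele, so neither group is wild type and both lack mouse ApoE protein. All were females, were fasted overnight before tissue collection and received no other treatment. The other 47 libraries cover both genotypes at later stages (9M-Reg, 9M-Irreg, 15M-Irreg and 15M-Acyc), where cycles were regular, irregular or absent. APOE4 mice were obtained as homozygotes, whereas APOE3 mice were bred to homozygosity from purchased heterozygotes, so genotype cannot be told apart from the breeding history of each line. The labels name no litter, cohort, dissection day or sequencing batch.

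Apolipoprotein E carries cholesterol and phospholipids between cells of the brain, is secreted mainly by astrocytes, and is taken up through lipoprotein receptors. The APOE4 allele is the strongest common genetic risk factor for late-onset Alzheimer's disease, and APOE3 is the common neutral allele. Adult neurons depend in part on cholesterol from astrocytes, and the enzymes of cholesterol synthesis are under shared control by the transcription factor SREBP2. The comparison at 6M-Reg addresses which transcripts differ between the genotypes before cycles become irregular.

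Before genes were compared, the libraries were compared for depth and cell content. Estimated reads on genes ranged from 23299468 to 38324719 per library in APOE3 animals and from 14637884 to 28303958 in APOE4 animals (exact permutation test, two-sided p = 0.173, and 0.638 after adjustment over 5 measures). The mitochondrially encoded share was 6.35% ± 0.354 (SD, n = 6) in APOE3 and 6.27% ± 0.494 (SD, n = 6) in APOE4 animals (exact permutation test, p = 0.749, where 6 against 6 allow 0.00216). Hippocampal markers were present in all 12 libraries, with summed levels from 277.1 to 395.8 CPM, counts scaled by library size, for dentate granule cells and from 799.4 to 923.4 CPM for CA1. Libraries differed widely in choroid plexus, the secretory tissue of the ventricles that lies beside the hippocampus. Its 10 markers, among them Ttr and Aqp1, summed to 59.57, 118.3 and 761.4 CPM in APOE3 replicates 1, 3 and 4 and to 33.72 CPM in APOE4 replicate 33. In the other 8 libraries the sum ran from 2121 to 6751 CPM, and the first principal component, with 23.5% of the variance, had Ttr as its leading gene. The second component (12.3%) set APOE4 replicate 32 apart, at 57.4 where the next highest library was at 3.43. The third (10.6%) set APOE3 replicate 4 apart, at -45.73 where the next lowest library was at -17.7. All 10 choroid plexus markers had a fitted level higher in APOE4 animals, with a median log2 fold change of 1.06, and 0 of them had an unadjusted p under 0.05.

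Transcripts of pituitary and hypothalamus, tissues outside the hippocampus, also differed between libraries. How they came into the libraries was not tested. The 7 tested markers of the 10 listed summed to 1.951, 29.77 and 78.97 CPM (lowest, median and highest) in APOE3 animals and to 2.421, 2.913 and 5.168 CPM in APOE4 animals. Prl, which encodes prolactin, was at 0.133, 18.61 and 48.45 CPM in APOE3 and at 0.03598, 0.7568 and 1.42 CPM in APOE4 animals. It was above the whole APOE4 range in all APOE3 libraries but replicate 4. At the later stages the group medians of Prl ran from 0.401 to 2.019 CPM in APOE3 and from 0.2713 to 0.5 CPM in APOE4 animals. Single libraries there reached 131.8 CPM in APOE3 (9M-Reg) and 17.43 CPM in APOE4 animals (9M-Irreg). Pomc, the precursor of ACTH and of melanocortins, spanned 0.7537 to 24.04 CPM in APOE3 and 0.977 to 1.187 CPM in APOE4 animals, and its groups overlapped. Cga, the shared subunit of the pituitary glycoprotein hormones, had 0 counts in every APOE4 library and was at least 2.35-fold lower than in APOE3 animals against a floor of 3 counts per library. Of the 7 markers, 4 were lower and 1 was higher at an unadjusted p under 0.05. The higher one was Oxt, the hypothalamic hormone oxytocin, at 0 to 0.2303 CPM in APOE3 and 0.06917 to 1.302 CPM in APOE4 animals (log2 fold change 1.96, SE 0.64), and Lhb and Avp had fitted values of 0.21 (SE 0.55) and 0.12 (SE 0.44). Markers of neutrophils and T cells were too low to test, with 0 of 8 listed genes kept. In bulk tissue, fewer cells of a type and less RNA per cell cannot be told apart, and this holds for each cell type below.

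**Figure D1:**
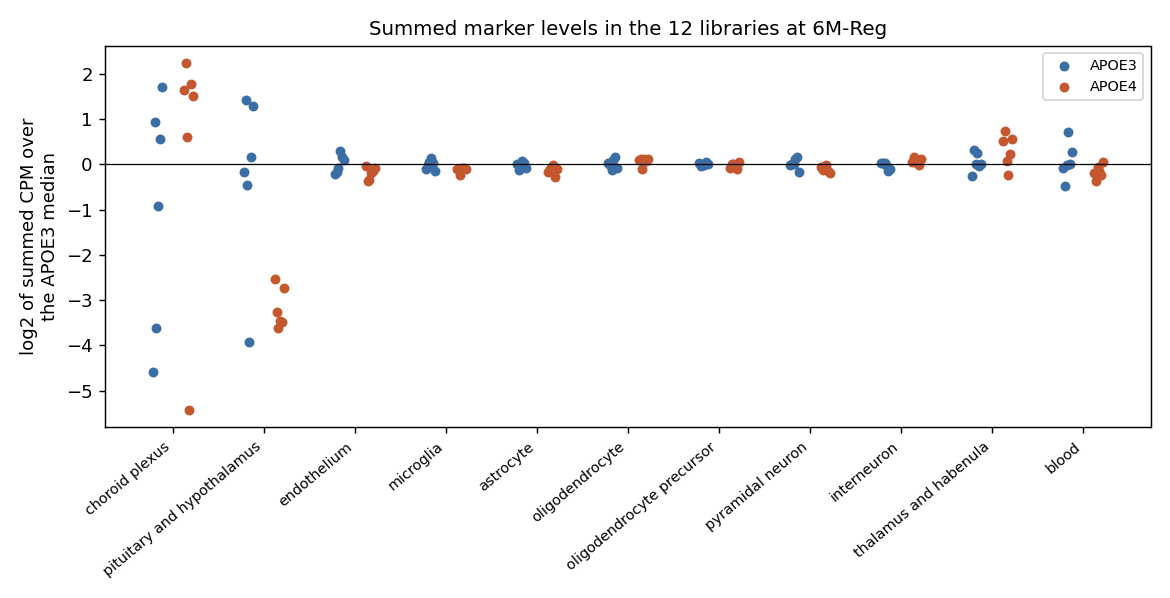
Summed marker levels in the 12 libraries at 6M-Reg. The horizontal axis lists cell types or regions, the vertical axis is the log2 of each library's summed CPM over the APOE3 median, and each point is 1 library (blue, APOE3; orange, APOE4). Choroid plexus sums run from 59.57 to 4665 CPM in APOE3 and from 33.72 to 6751 CPM in APOE4 libraries, pituitary and hypothalamus sums are low in all APOE4 libraries and in 1 APOE3 library, and the sums for cells of the hippocampus stay close to the line.

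Of 18584 genes tested with edgeR's quasi-likelihood test, 2 passed an adjusted p of 0.05, which is 0.0108% of them. These were Ndn, which fell, and the histone gene H2ac20, which rose in APOE4 animals. At an unadjusted p under 0.05, 961 genes (5.17%) were higher and 899 (4.84%) lower in APOE4 animals. The differences were small: the median absolute log2 fold change of these 1860 genes was 0.18, and it exceeded 1 for 85 of them. The levels of the groups did not overlap for 20 genes that were higher in APOE4 (0.108%) and for 18 that were lower (0.0969%). Over all genes tested the median log2 fold change was 0.00. Counts for gene lists are read against these shares, and genes are called higher or lower as measured, since apart from Ndn and H2ac20 no gene passed adjustment in edgeR.

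**Figure D2:**
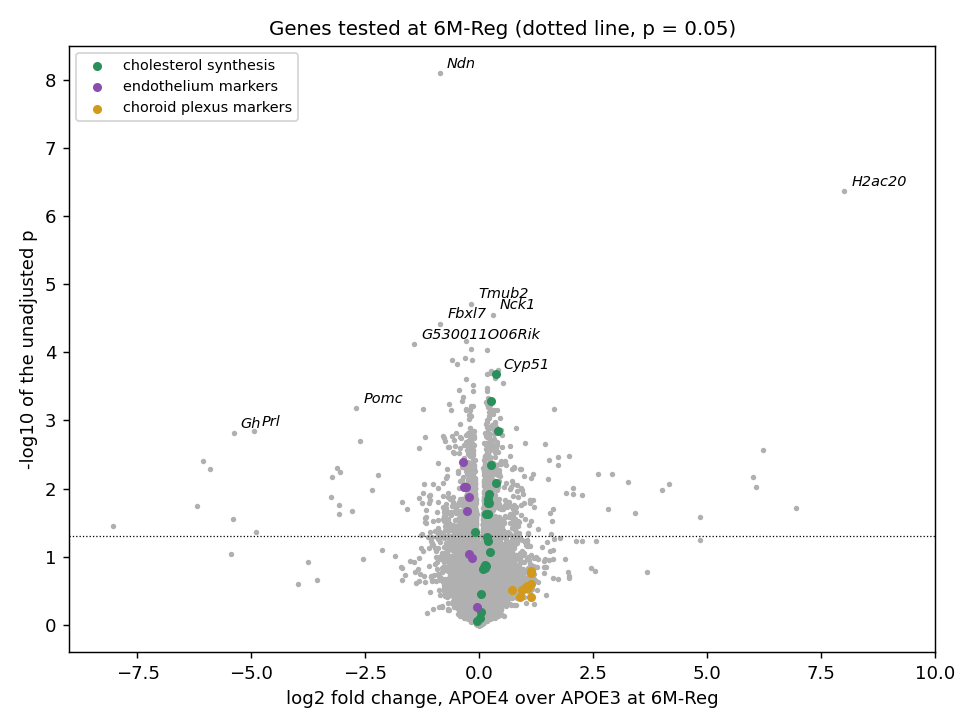
Genes tested at 6M-Reg by fold change and p. The horizontal axis is the fitted log2 fold change of APOE4 over APOE3, the vertical axis is -log10 of the unadjusted p, and each point is a gene (green, cholesterol synthesis; purple, endothelium markers; yellow, choroid plexus markers). Ndn and H2ac20 stand above all others, and the fitted fold change of H2ac20 is no bound, because all APOE3 libraries were at 0.

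Ndn fell by 0.87 on the log2 scale in APOE4 animals (SE 0.13, edgeR adjusted p = 0.000149). Ndn (ENSMUSG00000033585, GRCm38 chromosome 7 from 62346569 to 62350262, plus strand) encodes necdin, a protein of the MAGE family that restrains cell division in neurons and is made from the paternal allele only. Its level was 210.3, 226.1 and 236.1 CPM (lowest, median and highest) in APOE3 and 114.4, 122.4 and 132.2 CPM in APOE4 animals. Every APOE4 library lay below every APOE3 library, with a wide gap between the ranges. On the scale of TPM, which divides by transcript length and depth, the groups ranged from 104.7 to 116.1 and from 56.78 to 68.09 TPM. Its single transcript shares 0 of 3664 words of 31 bases with other transcripts of the annotation, so its reads were not split with a copy. When the 4 libraries low in choroid plexus markers were left out, a setting chosen after seeing the data, the log2 fold change was -0.81 and the adjusted p 0.0595.

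The same direction was seen at the later stages, whose group means come from other libraries, while p-values of both come from 1 model with a shared estimate of spread. Averaged over the other 4 stages the log2 fold change of Ndn was -0.77 (SE 0.07, edgeR adjusted p = 4.09e-12), and the difference from 6M-Reg was -0.10 (SE 0.14, adjusted p = 0.889 in edgeR). Over all stages the 30 APOE4 libraries ranged from 87.29 to 132.2 CPM. Of the 23 APOE3 libraries at later stages, 4 were at 110.9 to 130.3 CPM, within the APOE4 range, and the next was at 183.1 CPM. The APOE3 libraries of 6M-Reg thus held none of these low values. The promoter of Ndn is shown because this gene was the one called with groups that did not overlap. RefSeq places its start inside the Ensembl gene, and the 300 bases around that start (GRCm38.p6, chr7:62348027-62348326, plus strand) are given below with CG dinucleotides, the sites of DNA methylation, in capitals.
Ndn: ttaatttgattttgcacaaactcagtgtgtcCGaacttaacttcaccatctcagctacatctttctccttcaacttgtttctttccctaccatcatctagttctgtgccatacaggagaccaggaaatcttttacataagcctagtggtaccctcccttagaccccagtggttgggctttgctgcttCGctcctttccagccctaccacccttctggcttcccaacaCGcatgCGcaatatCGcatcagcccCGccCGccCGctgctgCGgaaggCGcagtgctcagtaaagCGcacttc
This window holds 11 CG dinucleotides, against a median of 19 in the windows of 12872 tested genes with an entry. Methylation was not measured here.

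Neighbours of Ndn were examined next. Of 18 tested genes within 2 Mb, Ndn included, 3 had an unadjusted p under 0.05. Magel2, a related MAGE gene that is imprinted in the same cluster, was at 2.356, 2.99 and 3.99 CPM in APOE3 and at 1.852, 4.571 and 7.891 CPM in APOE4 animals. The APOE4 libraries spread to both sides of the APOE3 range, and the fitted change was 0.73 on the log2 scale (SE 0.27, edgeR adjusted p = 0.379). Mkrn3, the third imprinted gene of that cluster in this list, had a log2 fold change of 0.14 (SE 0.17, edgeR adjusted p = 0.834). Ndn lies 42.7 Mb from Apoe on the same chromosome. Over chromosome 7, 141 of 1465 tested genes (9.62%) had an unadjusted p under 0.05, against 9.98% of all genes with a location. Of 26 tested imprinted genes, 4 were higher (15.4%) and 1 lower (3.85%) at that threshold. Peg3, a zinc finger gene expressed from the paternal allele, had groups from 329.5 to 426.8 CPM in APOE3 and from 378.7 to 489.9 CPM in APOE4 animals, which overlapped (log2 fold change 0.14, SE 0.06). The count of 4 higher imprinted genes was 1 without APOE3 replicate 5, 2 without APOE4 replicate 32 and 9 without the 4 libraries low in choroid plexus markers.

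H2ac20 (ENSMUSG00000068855, GRCm38 chromosome 3 from 96220361 to 96220880, minus strand), a gene of a replication-dependent histone cluster that encodes a form of histone H2A, had 0 counts in all 6 APOE3 libraries. In APOE4 replicates 30 to 35 the counts were 75, 43, 0, 1, 0 and 72. Levels were thus high in 3 APOE4 libraries and at or near 0 in the other 3. The APOE4 mean was at least 10.9-fold higher than a floor of 3 counts per library (edgeR adjusted p = 0.00399). This value is uncertain, since 314 of the 490 words of 31 bases in its transcript (64.1%) also occur in other transcripts, H2ac18 and H2ac19 among them. Moreover, transcripts of this cluster mostly lack poly(A) tails, and poly(A) RNA was sequenced. With the 12 libraries fitted alone, the adjusted p of H2ac20 was 0.801, and without the 4 libraries low in choroid plexus markers it was 0.102. At the later stages, H2ac20 was above 3 counts in 22 of 24 APOE4 libraries, with 0 to 77 counts, and in 0 of 23 APOE3 libraries, with 0 to 3 counts (edgeR adjusted p = 1.64e-09 over their mean). Of 12 tested clustered histone genes, H2ac20 was the single one with an unadjusted p under 0.05.

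**Figure D3:**
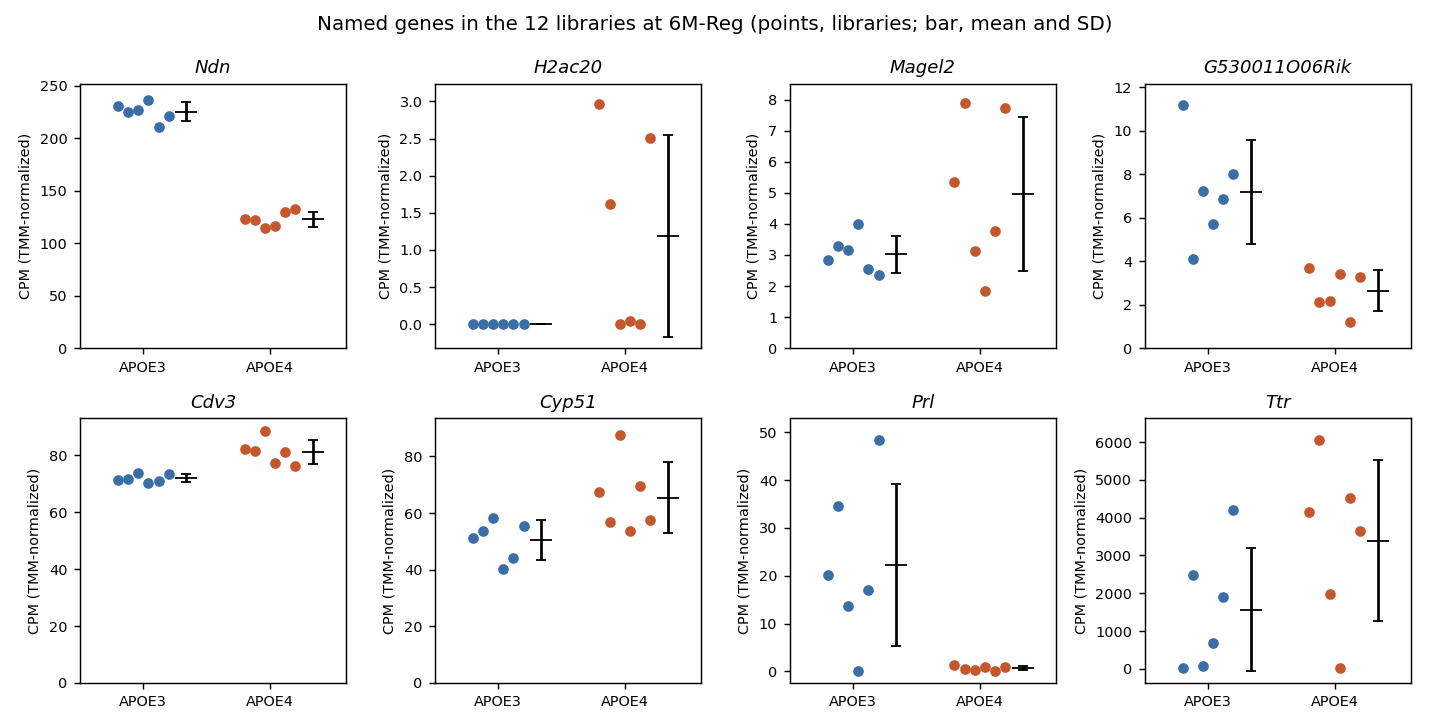
Levels of 8 genes in the 12 libraries. The vertical axes are TMM-normalized CPM, the points are single libraries, and the bars beside them give the mean and SD of 6 libraries. Ndn, G530011O06Rik and Cdv3 show groups without overlap, H2ac20 is above 0 in part of the APOE4 libraries, and Ttr spreads from 28.23 to 4199 CPM in APOE3 and from 11.16 to 6069 CPM in APOE4 libraries.

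Mouse Apoe (ENSMUSG00000002985, GRCm38 chromosome 7 from 19696109 to 19699188) was the replaced gene in both groups, and the human transcript is not in the mouse reference, so its level does not check the genotype labels. It was at 2.866, 3.638 and 3.813 CPM in APOE3 and at 2.327, 3.62 and 4.389 CPM in APOE4 animals. The ranges overlapped almost wholly, and the fitted log2 difference was 0.05 (SE 0.20, edgeR adjusted p = 0.957). Of 19 tested genes at this locus, 1 had an unadjusted p under 0.05. This was Bcl3, a regulator of NF-κB at 0.9467 CPM or less throughout, whose log2 fold change was 1.00 (SE 0.44). Tomm40, the adjacent gene for a channel of mitochondrial protein import, differed by -0.02 on the log2 scale (SE 0.04), and the small apolipoprotein gene Apoc1 by 0.13 (SE 0.25).

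After the 2 called genes, those with the smallest p differed by modest amounts. Nck1, an adaptor that links receptors to the actin skeleton, was at 13.61, 16.61 and 17.69 CPM in APOE3 and at 17.67, 19.73 and 22.17 CPM in APOE4 animals (log2 fold change 0.29, SE 0.06, edgeR adjusted p = 0.131). Its ranges touched at their ends. Cdv3 was at 70.23, 71.55 and 73.89 CPM in APOE3 and at 76.14, 81.5 and 88.54 CPM in APOE4 animals, without overlap (log2 fold change 0.17, SE 0.04). Sos2, an exchange factor that activates Ras, and Mfsd14a also had groups without overlap, with log2 fold changes of 0.23 (SE 0.06) and 0.17 (SE 0.04). The others higher were Slc31a2 (0.40, SE 0.10), a copper transporter, Mrpl1 (0.26, SE 0.07), a protein of the mitochondrial ribosome, Btaf1 (0.34, SE 0.09), which removes the TATA-binding protein from DNA, Cacna2d2 (0.51, SE 0.13), a subunit of calcium channels, and Cyp51, given with cholesterol synthesis. Cacna2d2 was at 46.75, 64.71 and 56.79 CPM in APOE4 replicates 30, 31 and 35, and at 29.83 to 36.52 CPM in the other 3, close to the APOE3 range of 27.2 to 36.5 CPM. Replicates 30, 31 and 35 are also the libraries with high H2ac20 counts and the highest sums of thalamus and habenula markers, 212.9, 249.1 and 218.2 CPM, whose part in the Cacna2d2 value was not tested.

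Among genes lower in APOE4 animals, Tmub2 had the smallest p after Ndn, with 59.95, 63.14 and 66.46 CPM in APOE3 and 51.53, 56.33 and 59.64 CPM in APOE4 animals. Its groups did not overlap (log2 fold change -0.18, SE 0.04, edgeR adjusted p = 0.12). G530011O06Rik, a noncoding transcript on chromosome X, was at 4.076, 7.022 and 11.19 CPM in APOE3 and at 1.223, 2.708 and 3.669 CPM in APOE4 animals. This was a difference of -1.43 on the log2 scale (SE 0.33), with every APOE4 library below every APOE3 library. The same gene passed adjustment when averaged over the other 4 stages (log2 fold change -0.83, SE 0.17, adjusted p = 0.0183). Fbxl7, a subunit of a ubiquitin ligase, differed by -0.85 on the log2 scale (SE 0.19) with groups that overlapped, since the lowest APOE3 library was at 1.048 CPM and the APOE4 libraries ran from 0.8992 to 1.619 CPM. Zfp341, a zinc finger gene, differed by -0.30 (SE 0.07) without overlap. Sipa1l1, which encodes a protein of the postsynaptic density, was at 347.5 to 390.6 CPM in APOE3 and 302.3 to 351.6 CPM in APOE4 animals (log2 fold change -0.18, SE 0.04). Setbp1 (-0.61, SE 0.15), Slc25a34 (-0.50, SE 0.12), Tbc1d9b (-0.16, SE 0.04) and Cspg4 (-0.31, SE 0.08) complete the 10 lower genes. The adjusted p was 0.00467 for Fbxl7 and 0.0154 for Setbp1 without APOE3 replicate 3, 0.0358 for both Fbxl7 and Tmub2 without APOE3 replicate 6, 0.0397 for Tbc1d9b without APOE3 replicate 5 and 0.0276 for Tmub2 without APOE4 replicate 30. For Nck1 it was 0.0415 without APOE4 replicate 33. DESeq2 with its own size factors called Tmub2 (adjusted p = 0.0138), Nck1 (0.0276) and Sipa1l1 (0.0468). With the authors' factors DESeq2 called 29 genes. Among them were Nck1, Tmub2, Btaf1, Mfsd14a, Mrpl1, Slc31a2, Cspg4, G530011O06Rik, Setbp1, Slc25a34 and Zfp341, with adjusted p from 0.025 to 0.0476 for these. The smallest adjusted p of that setting after Ndn were those of Ing3 (0.0012), Ypel1 (0.00388) and Cnot6l (0.00567). Their log2 fold changes were 0.62, -0.37 and 0.41. On the authors' normalized values limma called the same genes, with adjusted p of 0.0229 for Ing3 and 0.0416 for Ypel1 and Cnot6l. None of them passed adjustment in edgeR.

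By size of change, the genes without overlap were led on the higher side by Coq10b, which serves coenzyme Q in the respiratory chain, with 6.384 to 14.35 CPM in APOE3 and 14.56 to 17.85 CPM in APOE4 animals (log2 fold change 0.46, SE 0.13). Ammecr1 (0.42, SE 0.17), Taf4b (0.31, SE 0.09), Srfbp1 (0.31, SE 0.09) and Mex3c (0.23, SE 0.08) followed. On the lower side, a pair of entries known by gene ID alone, UNKNOWN_ENSMUSG00000111521 and UNKNOWN_ENSMUSG00000113750, had log2 fold changes of -0.63 and -0.59. None of these passed adjustment over all genes in edgeR.

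By number, cholesterol synthesis held the most members with an unadjusted p under 0.05 among the lists examined. By share, the shorter lists of endothelial markers (62.5% lower) and of pituitary and hypothalamus markers (57.1% lower) held more. Of 24 tested genes of cholesterol synthesis, 22 had a higher fitted level in APOE4 animals. At an unadjusted p under 0.05, 11 were higher (45.8%, against 5.17% of all genes) and 1 was lower (4.17%). The median log2 fold change was 0.17, and the smallest adjusted p was 0.218. The summed level of the list was 1087, 1238 and 1361 CPM in APOE3 and 1192, 1370 and 1518 CPM in APOE4 animals, so the groups overlapped. The count of 11 higher genes was 6 without APOE3 replicate 4, and it was 7 without each of APOE4 replicates 30, 32 and 34. With the 12 libraries fitted alone it was 7, with length and GC correction 11, and with both of these 6.

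The enzymes are given in the order of the pathway. Acat2, which condenses acetyl-CoA, and Hmgcs1, the synthase of the next step, had log2 fold changes of 0.18 (SE 0.08) and 0.20 (SE 0.08). Both were lower-ranked by p than the later enzymes Idi1, Cyp51 and Sc5d. Mvd, the decarboxylase that yields isopentenyl diphosphate, had a log2 fold change of 0.35 (SE 0.13). Idi1, the isomerase that follows it, was at 22.21, 36.08 and 45.88 CPM in APOE3 and at 39.95, 44.58 and 56.86 CPM in APOE4 animals (0.40, SE 0.12). All 6 APOE4 libraries were above the APOE3 mean of Idi1, although the ranges overlapped. Fdps and Fdft1, which join isoprene units into squalene, had log2 fold changes of 0.15 (SE 0.06) and 0.18 (SE 0.07), and Sqle, the epoxidase of squalene, of 0.19 (SE 0.07). Cyp51, which removes a methyl group from lanosterol, was at 40.08, 52.46 and 58.33 CPM in APOE3 and at 53.77, 62.6 and 87.5 CPM in APOE4 animals (0.37, SE 0.09, edgeR adjusted p = 0.218). Msmo1, the methyl oxidase of the same stretch, was at 38.71 to 56.49 CPM in APOE3 and 52.82 to 63.5 CPM in APOE4 animals (0.26, SE 0.09). Sc5d, a late desaturase, was at 42.08, 54.01 and 60.68 CPM in APOE3 and at 60.12, 61.72 and 72.63 CPM in APOE4 animals (0.25, SE 0.07). The member lower at the threshold was Tm7sf2, a sterol reductase, with a log2 fold change of -0.10 (SE 0.05). For the regulators, Srebf2, which encodes SREBP2, differed by 0.04 on the log2 scale (SE 0.04), and Insig1, which holds SREBP in the endoplasmic reticulum, by 0.24 (SE 0.14), neither with an unadjusted p under 0.05.

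**Figure D4:**
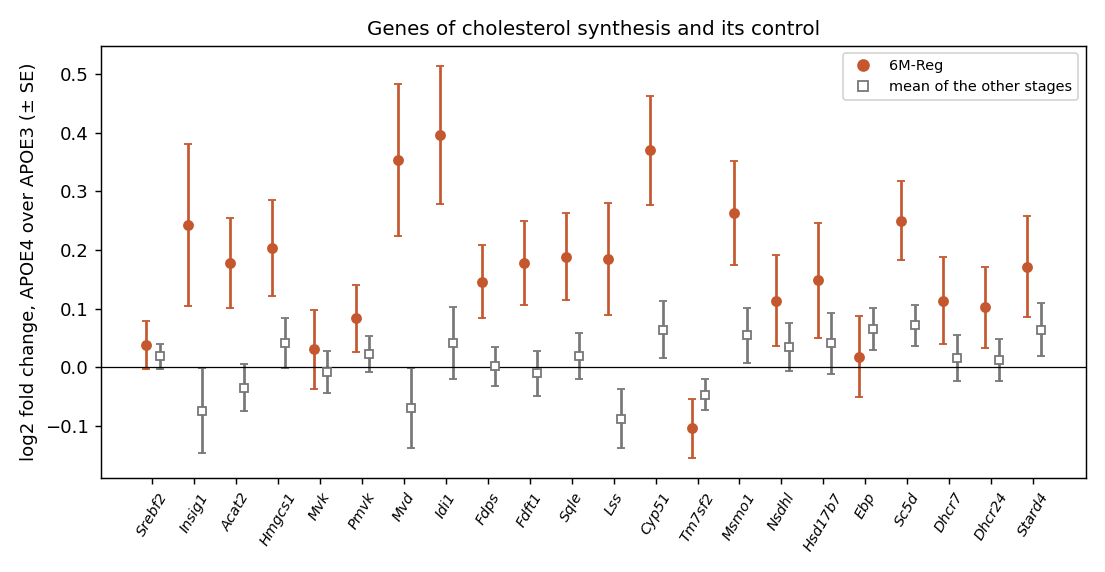
Fold changes of genes of cholesterol synthesis. The vertical axis is the log2 fold change of APOE4 over APOE3 with its SE, filled circles are 6M-Reg and open squares the mean of the other 4 stages, and genes run from regulators through the pathway. At 6M-Reg the circle of Tm7sf2 lies below 0 and the others shown lie above it. For the mean of the other stages the median of the list is 0.02.

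At the later stages the list stayed near 0, with a median log2 fold change of 0.02 and 1 of 24 genes higher at an unadjusted p under 0.05, where 7.6% of all genes were. The difference between 6M-Reg and the mean of the other stages had an unadjusted p under 0.05 for 11 of the 24 genes (45.8%), against 7.82% of all genes tested. For Cyp51 the difference was 0.31 (SE 0.10), for Idi1 0.36 (SE 0.13) and for Mvd 0.42 (SE 0.15). No gene passed adjustment for this difference (smallest adjusted p over all genes 0.463 in edgeR).

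The promoters of the 4 members with the smallest p are shown because these members were higher together and SREBP2 is known to act beside CCAAT-binding factors. Hmgcs1 is not among these 4 and is shown too. Its window alone, among the 17 members with an entry, holds the sterol motif given below. The windows run from 250 bases before to 50 bases after the RefSeq start (GRCm38.p6) and are written along the strand of the gene. They are chr5:4104648-4104947 for Cyp51 (minus strand), chr9:42264251-42264550 for Sc5d (minus), chr13:8885356-8885655 for Idi1 (plus), chr8:64733529-64733828 for Msmo1 (minus) and chr13:119690101-119690400 for Hmgcs1 (plus). Capitals mark CCAAT, or ATTGG on the other strand, and the sterol motif TCACNCCAC.
Cyp51: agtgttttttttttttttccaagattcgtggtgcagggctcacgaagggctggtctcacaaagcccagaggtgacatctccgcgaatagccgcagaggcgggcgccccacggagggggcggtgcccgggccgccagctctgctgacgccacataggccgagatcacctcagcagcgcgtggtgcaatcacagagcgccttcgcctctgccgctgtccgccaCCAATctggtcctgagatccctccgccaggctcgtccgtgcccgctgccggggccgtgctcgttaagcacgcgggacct
Sc5d: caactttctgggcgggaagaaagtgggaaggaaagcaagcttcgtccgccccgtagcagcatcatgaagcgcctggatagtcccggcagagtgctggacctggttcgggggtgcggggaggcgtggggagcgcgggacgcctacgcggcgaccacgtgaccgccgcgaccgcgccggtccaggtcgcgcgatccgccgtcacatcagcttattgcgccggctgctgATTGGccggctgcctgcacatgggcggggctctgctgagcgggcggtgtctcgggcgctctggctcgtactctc
Idi1: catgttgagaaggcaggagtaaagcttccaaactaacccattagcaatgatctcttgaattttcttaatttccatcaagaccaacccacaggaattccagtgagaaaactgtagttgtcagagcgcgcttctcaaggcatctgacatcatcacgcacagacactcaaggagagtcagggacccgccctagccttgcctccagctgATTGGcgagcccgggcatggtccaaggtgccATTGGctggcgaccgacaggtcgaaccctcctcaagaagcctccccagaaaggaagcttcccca
Msmo1: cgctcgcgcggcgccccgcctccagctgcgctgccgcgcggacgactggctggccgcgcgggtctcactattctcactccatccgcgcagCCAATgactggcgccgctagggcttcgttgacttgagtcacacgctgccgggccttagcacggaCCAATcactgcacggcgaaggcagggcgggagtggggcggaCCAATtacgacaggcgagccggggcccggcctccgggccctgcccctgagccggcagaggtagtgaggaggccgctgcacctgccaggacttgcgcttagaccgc
Hmgcs1: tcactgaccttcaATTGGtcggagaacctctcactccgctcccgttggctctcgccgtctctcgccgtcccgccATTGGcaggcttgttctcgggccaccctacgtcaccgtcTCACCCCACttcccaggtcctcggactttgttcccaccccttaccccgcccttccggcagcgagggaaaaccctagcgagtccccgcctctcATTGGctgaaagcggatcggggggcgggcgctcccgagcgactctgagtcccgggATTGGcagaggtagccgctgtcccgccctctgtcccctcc
Of the 24 members, 17 have a promoter entry. CCAAT, searched on both strands, was in the windows of 16 of these (94.1%), against 42.3% of 12872 tested genes with an entry. TCACNCCAC was in 1 of 17 (5.88%), that of Hmgcs1, against 1.35%. No match overlapped another in the 5 windows printed. A match is a run of letters, and binding was not measured.

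Receptors and carriers of ApoE lipoproteins were mixed. Of 20 tested genes of ApoE reception and lipidation, 1 was higher (5%) and 2 were lower (10%) at an unadjusted p under 0.05. Vldlr, a receptor for ApoE and reelin, was at 62.34, 83.85 and 87.75 CPM in APOE3 and at 81.66, 93.65 and 105.1 CPM in APOE4 animals (log2 fold change 0.20, SE 0.06). Lrp1, a large endocytic receptor of ApoE, was at 510.9, 543.3 and 561.5 CPM in APOE3 and at 446.4, 508 and 522.5 CPM in APOE4 animals (-0.13, SE 0.04). Abcg4, a sterol exporter, differed by -0.12 (SE 0.05) and counts in the list of 18 exporters and LXR targets too, where Scd1, a fatty acid desaturase, was the 1 higher member (0.13, SE 0.05). For fatty acid metabolism, 4 of 36 genes were higher (11.1%) and 1 lower (2.78%). Elovl6, an elongase, differed by 0.29 (SE 0.10), and Acadm, of mitochondrial fatty acid oxidation, by 0.17 (SE 0.07). Cpt1c, a neuronal relative of the carnitine transferases, was the lower member (-0.09, SE 0.04). The count of 4 was 2 without any one of APOE3 replicates 2, 4 and 5 or APOE4 replicate 31.

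Nuclear genes of the respiratory chain leaned higher by small amounts. At an unadjusted p under 0.05, 7 of 36 complex I genes (19.4%), 2 of 13 genes of complexes II and III (15.4%), 5 of 15 complex IV genes (33.3%) and 4 of 15 complex V genes (26.7%) were higher, and 0 were lower. The medians of the log2 fold changes were 0.05, 0.02, 0.03 and 0.06 in that order. Cox7b, a small subunit of cytochrome c oxidase, was at 80.64, 85.43 and 86.93 CPM in APOE3 and at 88.08, 90.06 and 114.2 CPM in APOE4 animals (0.16, SE 0.04), without overlap. Cox7c was at 108.8 to 129.1 CPM in APOE3 and 110.9 to 185.4 CPM in APOE4 animals (0.20, SE 0.06), with the highest value in replicate 32. Ndufs6 and Ndufa1 of complex I had log2 fold changes of 0.19 (SE 0.06) and 0.18 (SE 0.06), and Atp5g3 of the ATP synthase ring 0.10 (SE 0.03). The 13 mitochondrially encoded genes had 0 members at the threshold and a median of -0.03. Complex IV had 2 higher genes without APOE4 replicate 32. With the 12 libraries fitted alone and corrected for length and GC, 2 genes of complex I, 0 of complex IV and 1 of complex V were higher.

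In glycolysis, 2 of 20 genes were higher (10%) and 1 lower (5%): Pgk1 (0.14, SE 0.04), the kinase that makes the first ATP of the pathway, Ldhb (0.12, SE 0.05), which turns lactate to pyruvate, and Aldoc (-0.09, SE 0.05), the aldolase of astrocytes. The 1 lower gene became 3 without APOE4 replicate 34. In the TCA cycle, 3 of 25 genes were higher (12%), led by Idh3a (0.08, SE 0.03), a subunit of isocitrate dehydrogenase at 192.3 to 207.3 CPM in APOE3 and 200.4 to 219.8 CPM in APOE4 animals. This count was 1 without any one of APOE3 replicate 4 and APOE4 replicates 32 and 34, and 0 without the 4 libraries low in choroid plexus markers. With length and GC correction the unadjusted p in edgeR was 0.0949 for Idh3a, 0.235 for Mdh1 and 0.0189 for Sdhc, the 3 members counted. For mitochondrial biogenesis and AMPK signaling, 3 of 26 genes were higher (11.5%) and 4 lower (15.4%). Crtc1, a coactivator of CREB, was at 212.8, 249.7 and 291.8 CPM in APOE3 and at 195.6, 222.7 and 240.2 CPM in APOE4 animals (-0.18, SE 0.06), whereas Creb1 itself had a log2 fold change of 0.20 (SE 0.09). Sirt3, a mitochondrial deacetylase, had -0.10 (SE 0.04) and Prkab1, a subunit of AMPK, -0.21 (SE 0.08). The 3 higher genes were 0 without APOE4 replicate 32 and 5 without APOE4 replicate 33, and the 4 lower ones were 1 without the 4 libraries. Ppargc1a, the coactivator that drives mitochondrial biogenesis, had a log2 fold change of 0.03 (SE 0.05), Nrf1 of 0.12 (SE 0.06) and Tfam of 0.01 (SE 0.05).

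Genes of excitatory synapses leaned lower. Of 28 tested genes, 6 were lower (21.4%, against 4.84% of all genes) and 0 higher at an unadjusted p under 0.05, with a median log2 fold change of -0.08. Shank1, a scaffold of the postsynaptic density, was at 450.5, 473.6 and 511.5 CPM in APOE3 and at 367.6, 419.8 and 449.7 CPM in APOE4 animals, without overlap (-0.21, SE 0.06). Dlg4, which encodes the scaffold PSD-95, was at 540.7, 605.8 and 638.7 CPM in APOE3 and at 518.4, 555.5 and 574.2 CPM in APOE4 animals (-0.13, SE 0.04). Camk2a, the kinase of synaptic plasticity, differed by -0.15 on the log2 scale (SE 0.06) and Shank3 by -0.11 (SE 0.05). The count of 6 was 3 without APOE3 replicate 4 or replicate 5 and 11 without APOE4 replicate 33. All 6 markers of pyramidal neurons and all 8 of dentate granule cells had negative log2 fold changes, with medians of -0.09 for both lists and 1 member in all, Camk2a, at the threshold.

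Genes of inhibitory neurons were mixed. Of 7 interneuron markers, 5 had a higher and 2 a lower fitted level, and 3 were higher at an unadjusted p under 0.05 (42.9%). These were also the 3 members at the threshold among 21 genes of GABA synapses and interneurons (14.3%), of which 10 had a higher and 11 a lower fitted level, with a median of -0.01. Gad2, which makes GABA at terminals, was at 137.7, 140.9 and 147.1 CPM in APOE3 and at 140.4, 155.3 and 199.4 CPM in APOE4 animals (log2 fold change 0.20, SE 0.06). Slc32a1, the vesicular GABA transporter, was at 75.81 to 92.71 CPM in APOE3 and 80.38 to 115.7 CPM in APOE4 animals (0.23, SE 0.08). Gad1, the other GABA synthase, had 0.09 (SE 0.04). Levels of markers from outside the hippocampus moved with these genes in part: thalamus and habenula markers summed to 124.1, 149.1 and 184.8 CPM in APOE3 and to 125.8, 193.2 and 249.1 CPM in APOE4 animals. Of these 10 markers 6 had a higher and 4 a lower fitted level, with a median of 0.06, and Zic1, of the medial habenula and septum, was the 1 at the threshold (0.98, SE 0.40). Striatum markers, of a tissue made mostly of GABA neurons, summed to 112.7, 132.6 and 141.4 CPM in APOE3 and to 106.5, 149.6 and 179.1 CPM in APOE4 animals, with 7 of 8 higher and 0 at the threshold. APOE4 replicate 31 had the highest sums of thalamus and habenula, of striatum (179.1 CPM) and of interneuron markers (943.2 CPM), and the highest Gad2. Their part in the GABA genes was not tested.

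Immediate early genes, which neurons and vessels switch on within minutes of activity or stress, went both ways. At an unadjusted p under 0.05, 5 of 24 members were lower (20.8%) and 2 higher (8.33%), with a median of -0.03. In fitted level 11 were higher, by up to 0.29 on the log2 scale, and 13 lower. The genes named here are lower members. Npas4, which follows calcium entry in neurons, was at 8.177, 17.02 and 25.99 CPM in APOE3 and at 6.509, 10.83 and 12.21 CPM in APOE4 animals (-0.74, SE 0.26). Btg2 was at 16.1 to 33.93 CPM in APOE3 and 11.01 to 21.87 CPM in APOE4 animals (-0.71, SE 0.25). Dusp1, a phosphatase of MAP kinases, had -0.59 (SE 0.24) and Ier2 -0.61 (SE 0.25). In each of these 4 genes all APOE4 libraries lay below the APOE3 mean, and the ranges overlapped. The 5 lower genes were 3 without APOE3 replicate 4 or APOE4 replicate 30 and 2 without APOE4 replicate 31. Time from death to freezing is not given in the labels and was not tested.

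Microglial genes leaned lower in APOE4 animals at 6M-Reg. Of 21 genes of homeostatic microglia, 5 were lower (23.8%) and 0 higher at an unadjusted p under 0.05, with a median log2 fold change of -0.09. Cx3cr1, the fractalkine receptor, was at 36.92, 41.74 and 44.49 CPM in APOE3 and at 28.91, 36.52 and 39.79 CPM in APOE4 animals (-0.19, SE 0.07). Csf1r, the receptor that microglia need to survive, was at 70.2 to 85.7 CPM in APOE3 and 62.25 to 76.06 CPM in APOE4 animals (-0.13, SE 0.06). P2ry13, a purine receptor, was at 5.984, 6.469 and 8.406 CPM in APOE3 and at 3.778, 5.358 and 6.2 CPM in APOE4 animals (-0.35, SE 0.13). Averaged over the other 4 stages, P2ry13 had a log2 fold change of 0.27 (SE 0.07, edgeR adjusted p = 0.0494), and the difference was -0.62 (SE 0.14, adjusted p = 0.463). The list's median at those stages was 0.09, and 10 of 21 members (47.6%) had an unadjusted p under 0.05 for the difference, against 7.82% of all genes. Without any one of APOE3 replicates 3 and 4 and APOE4 replicate 32 the 5 lower genes were 2, and without APOE4 replicate 30 or without the 4 libraries low in choroid plexus markers they were 3. The 8 microglia markers summed to 261.1, 289 and 315.6 CPM in APOE3 and to 245.1, 268.9 and 274.4 CPM in APOE4 animals. Aif1, which encodes the microglial protein IBA1, had a log2 fold change of -0.17 (SE 0.14).

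Genes of activated glia and of inflammation showed few differences. Of 19 genes of disease-associated microglia, 1 was higher, Cd9 (0.28, SE 0.14), a membrane tetraspanin. Of 23 interferon response genes, 2 were higher (8.7%), and both encode parts of the interferon-activated complex ISGF3: Irf9 (0.33, SE 0.12), at 5.808, 12.44 and 13.96 CPM in APOE3 and 12.73, 14.42 and 15.17 CPM in APOE4 animals, and Stat2 (0.13, SE 0.06). Among 24 cytokines and IL-1 targets, Il34 (-0.17, SE 0.06), a neuronal ligand of Csf1r, and Cxcl12 (-0.18, SE 0.09) were lower and Nfkb1 (0.13, SE 0.06) was higher. Il1b had at most 0.2874 CPM in any library (-0.28, SE 0.45). The 21 genes of antigen presentation and complement had 0 members at the threshold and a median of -0.11. Of 21 reactive astrocyte genes, Timp1 (1.09, SE 0.50) was higher and Ptx3 (-0.91, SE 0.34) lower, both at 0.8424 CPM or less. The 1 lower gene became 3 without APOE4 replicate 30. All 8 astrocyte markers had negative log2 fold changes, 2 of them at the threshold (25%, 4 genes without APOE3 replicate 2), with Gfap at 430.1, 445.2 and 461.7 CPM in APOE3 and 375.6, 415.3 and 452.3 CPM in APOE4 animals (-0.12, SE 0.07).

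In the oligodendrocyte lineage, 3 of 10 precursor genes were lower at an unadjusted p under 0.05 (30%), while 4 of the 10 had a higher fitted level. The summed precursor markers were at 286.9, 293.2 and 303.1 CPM in APOE3 and at 272.2, 291.6 and 302.9 CPM in APOE4 animals, almost wholly overlapping. At the threshold, 1 of 22 myelin and oligodendrocyte genes was lower (4.55%). Cspg4, the proteoglycan NG2 of precursors and pericytes, was at 24.17, 25.77 and 31.97 CPM in APOE3 and at 19.57, 21.06 and 24.61 CPM in APOE4 animals (-0.31, SE 0.08, edgeR adjusted p = 0.199). Only the top APOE4 library reached into the APOE3 range. Sox6 had a log2 fold change of -0.21 (SE 0.10), Pdgfra of -0.13 (SE 0.06) and Olig2, the transcription factor of the whole lineage, of -0.30 (SE 0.12). The 3 lower precursor genes were 1 without APOE3 replicate 4 or 6 and without the 4 libraries low in choroid plexus markers. Genes of mature myelin did not share that direction: all 8 oligodendrocyte markers had positive log2 fold changes, none at the threshold, with a median of 0.06. Mbp was at 2148, 2340 and 2539 CPM in APOE3 and at 2033, 2410 and 2612 CPM in APOE4 animals (0.02, SE 0.08), and Cnp had 0.04 (SE 0.08).

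Endothelial markers were lower. Of the 8 markers, all had negative log2 fold changes and 5 were lower at an unadjusted p under 0.05 (62.5%), with a median of -0.25. Kdr, the main VEGF receptor, was at 11.12, 14.8 and 17.62 CPM in APOE3 and at 8.646, 11.52 and 12.58 CPM in APOE4 animals (-0.36, SE 0.12). Tek, the angiopoietin receptor, had -0.33 (SE 0.12), Abcb1a, an efflux pump of the blood-brain barrier, -0.28 (SE 0.11) and Pecam1, an adhesion molecule, -0.24 (SE 0.09). Summed, the markers were at 203.9, 236 and 289.2 CPM in APOE3 and at 183.6, 209.8 and 228.5 CPM in APOE4 animals, with overlap. The count of 5 was 3 without APOE3 replicate 4, the library with the highest sum, and 4 without the 4 libraries low in choroid plexus markers. For the mean of the later stages the median of the endothelial markers was 0.03. Of these 8 markers, 7 (87.5%) had an unadjusted p under 0.05 for the difference, against 7.82% of all genes. Pericyte and smooth muscle markers (0 of 7 at the threshold, median -0.07), fibroblast markers (0 of 8, -0.11) and perivascular macrophage markers (0 of 6, -0.25) had negative medians. Their sums did not share that sign throughout: the median sum for meninges and fibroblasts was 162.5 CPM in APOE3 and 204.3 CPM in APOE4 animals, and that for perivascular macrophages 6.201 and 6.28 CPM. The 4 tested globin and erythroid markers summed to 85.32, 118.5 and 193 CPM in APOE3 and to 91.54, 105 and 122.2 CPM in APOE4 animals, with 0 at the threshold. For the mean of the later stages their median was 0.36, and all 4 had an unadjusted p under 0.05 for the difference, against 7.82% of all genes.

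Heat shock and unfolded protein genes were higher in 22 of 26 cases, 4 of them at an unadjusted p under 0.05 (15.4%), with a median of 0.09. Hspd1 and Hspe1, the mitochondrial chaperonin pair, had log2 fold changes of 0.11 (SE 0.04) and 0.15 (SE 0.05), Dnajb1 of 0.15 (SE 0.06) and Atf4, the factor of the integrated stress response, of 0.14 (SE 0.06). These 4 were 2 without APOE4 replicate 32 and 7 without APOE4 replicate 33. Of 18 clock genes, with a median of 0.00, 2 were higher (11.1%): Per2, at 25.8, 34.99 and 45.62 CPM in APOE3 and 39.47, 45.05 and 56.57 CPM in APOE4 animals (0.41, SE 0.13), and Cry1 (0.34, SE 0.14). Both encode repressors of the clock. The count of 2 was 6 without APOE3 replicate 3, 4 without APOE4 replicate 33 or 34, and 5 without the 4 libraries low in choroid plexus markers. Among 25 genes linked to Alzheimer's disease, 3 were higher (12%), and the median was 0.00. Ide, a protease of insulin and amyloid-β, was at 58.3, 70.79 and 81.64 CPM in APOE3 and at 76.52, 84.17 and 94.05 CPM in APOE4 animals (0.29, SE 0.08), and over the other 4 stages it had a log2 fold change of 0.26 (SE 0.04, edgeR adjusted p = 0.00121). The count of 3 was 1 without APOE4 replicate 31, with length and GC correction and with the 12 libraries fitted alone.

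Hormone and insulin signaling held few members at the threshold. Of 23 estrogen and steroid receptor genes, 3 were lower (13%, against 4.84% of all genes) and 0 higher at an unadjusted p under 0.05. The median log2 fold change of these 23 genes was -0.003. Ncor1, a corepressor of nuclear receptors, was at 227.8 to 253.5 CPM in APOE3 and 215.5 to 237.8 CPM in APOE4 animals (-0.09, SE 0.03). Greb1, an estrogen target, had a log2 fold change of -0.53 (SE 0.25) at 1.228 CPM or less, and Akr1c14, which reduces steroids, of -0.57 (SE 0.27). The count was 1 without any one of APOE3 replicate 5 and APOE4 replicates 30 and 32. Esr1, the estrogen receptor itself, had 0.02 (SE 0.16). Of 24 insulin and glucose transport genes, Igf1r, the IGF-1 receptor, was lower (51.96, 60.85 and 73.02 CPM in APOE3; 45.8, 51.99 and 59.89 CPM in APOE4; -0.24, SE 0.07), and Foxo3, a factor that insulin signaling holds out of the nucleus, was higher (0.15, SE 0.07). Of 42 ribosomal protein genes, 2 were higher (4.76%), close to the share of all genes, and 4 were without APOE4 replicate 35. In the insulin list the 1 higher gene became 3 without APOE3 replicate 1 or 3, and the 1 lower gene became 3 without APOE3 replicate 6.

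Fold changes followed GC content. In 5 equal bins of genes from the lowest to the highest GC content of their transcripts, the median log2 fold change was 0.04, 0.02, 0.00, -0.02 and -0.03, and the share of genes higher in APOE4 was 62.5%, 57.6%, 50.1%, 43.9% and 37.7%. The 5 bins by transcript length all had medians that round to 0.00. With length and GC corrected within each library, 731 genes were higher and 871 lower at an unadjusted p under 0.05, in place of 961 and 899. Cholesterol synthesis kept 11 higher genes with a median of 0.15, glutamate synapse genes 5 of 6 lower with a median of -0.07, and endothelial markers 5 lower with a median of -0.28. Ndn had a log2 fold change of -0.91 after that correction.

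Set against the other stages, the genotype difference at 6M-Reg was the same in sign for 35 of the 45 genes called over the mean of the later stages (0.242% of all genes), 12 of them with an unadjusted p under 0.05 at 6M-Reg. Of all genes tested, 55.2% had the same sign in both, and 6.4% also had such a p at 6M-Reg. The group means come from separate libraries, and the p-values share 1 estimate of spread. Of the 20 genes with the smallest p at 6M-Reg after the called ones, 17 had the same sign later. Of the same 20, 5 had an unadjusted p under 0.05 later with the same sign, against 9.05% of all genes (14.1% in either direction). For the difference itself, 1454 genes (7.82%) had an unadjusted p under 0.05 and 0 passed adjustment in edgeR, where DESeq2 called 1. The smallest p was that of Sipa1l1, with -0.18 at 6M-Reg and 0.03 later (difference -0.21, SE 0.05, edgeR adjusted p = 0.463). Cdv3 (0.17 and -0.01), Slc2a5 (-0.34 and 0.22), a fructose transporter of microglia, and Ints7 (-0.17 and 0.09), a subunit of the Integrator complex, followed P2ry13.

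**Figure D5:**
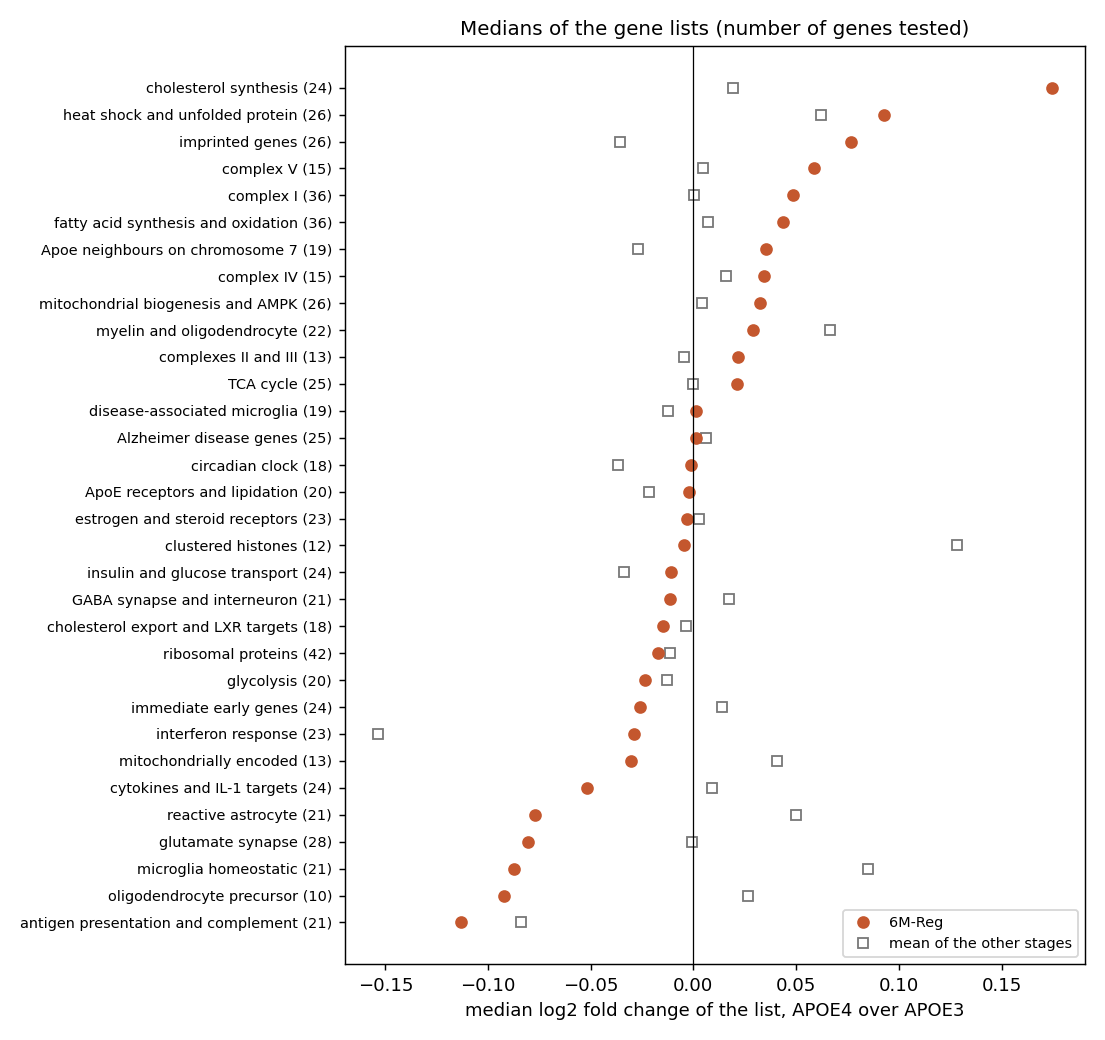
Median log2 fold change of the gene lists by function, without the cell type marker lists. The horizontal axis is the median over the tested genes of a list, whose number stands in parentheses, filled circles are 6M-Reg and open squares the mean of the other 4 stages. Among the lists plotted, cholesterol synthesis has the highest median at 6M-Reg, 0.17, and antigen presentation and complement the lowest, -0.11. The square of homeostatic microglia lies on the other side of 0 from its circle. So do those of other lists, among them reactive astrocyte, oligodendrocyte precursor and imprinted genes.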

How the data were processed

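Poly(A) RNA of hippocampus was sequenced by the authors as stranded 150 bp read pairs and quantified with Salmon 0.15.0 on mouse cDNA (GRCm38). The authors deposited estimated counts (expected counts), summed per gene symbol with tximport and rounded, for 24439 genes. A second table from the authors holds a normalized signal, the same counts divided by DESeq2 factors. The deposited transcript files hold estimated counts and TPM, and their sums came within 1 read of 99.69% of the gene values. Mapping was not repeated, and only libraries of the labelled groups were compared.

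The test kept genes that reached 10 counts in 3 or more libraries and ran in edgeR 4.0.16 (R 4.3.3) with TMM factors and the two-sided quasi-likelihood test, in 1 model over 59 libraries and 10 groups without covariates, with Benjamini-Hochberg adjustment over all genes tested. The difference from the other stages was 1 contrast of that model. CPM are TMM-normalized. Single values per library were compared by two-sided exact permutation tests over 924 divisions. Among 30 pairs within a group no library was a copy of another (smallest chi-square per degree of freedom 6.4). Nothing in the labels says more of replicates than that they are separate samples. Counting floors cover counting error only. Lists are described by counts and medians. The scripts were tested on simulated data.

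The libraries, gene lists and tests were chosen with earlier results of these data known. Genes named are Apoe and its neighbours, genes with an adjusted p under 0.05, the 10 smallest p in each direction, the 5 largest changes in each direction among genes above 1 CPM without overlap, genes named by the paper, up to 4 smallest p of each list, and the 5 smallest p of the difference. Others were named after their values were seen. Some genes under this rule are not reported here. Of the genes the paper names, Them5 and Tshb were below the filter. Alternatives were RLE factors, DESeq2 1.42.0 with its own or the authors' factors, limma 3.58.1 on log2(normalized value + 1), other filters, natural splines with 5 degrees of freedom for length and GC content, the 12 libraries alone, and each library left out. Chosen after seeing the data were fitting the 12 libraries alone with the length and GC correction and leaving out 4 libraries low in choroid plexus markers. Gene locations are from the GRCm38 annotation and promoters from RefSeq (GRCm38.p6).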

Additional observations from a re-analysis of the deposited data

Results flagged for a closer look

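Of 336 groups of 6 libraries examined for the genes and marker sums of the text, 27 had 1 library far from the other 5 by Dixon's ratio, which chance gives for about 1 group in 20. The ratio is the gap to the nearest library over the range of the group.

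In APOE3 animals, 9 of these came from replicate 4. It was the lowest library for Sos2 (ratio 0.683, at 26.38 CPM), Taf4b (0.666), Mex3c (0.764), Acat2 (0.855, at 29.13 CPM) and Vldlr (0.632), and the highest for UNKNOWN_ENSMUSG00000111521 (0.728), Nrf1 (0.647), Ptx3 (0.683) and Abcb1a (0.639, at 48.33 CPM). Replicate 1 was lowest for Aif1 (0.664) and highest for Ndufb5 (0.683), replicate 2 was highest for Pomc (0.663, at 24.04 CPM), and replicate 6 was highest for Acadm (0.658) and Ndufa1 (0.749).

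In APOE4 animals, 8 came from replicate 32, which also had the fewest counts, 14637884. It was the highest library for Sc5d (0.813, at 72.63 CPM), Pgk1 (0.742), Cox7b (0.761), Cox7c (0.773, at 185.4 CPM), Atp5h (0.785) and Hspd1 (0.656), and the lowest for the sums of microglia markers (0.754, at 245.1 CPM) and oligodendrocyte markers (0.698, at 4556 CPM). Replicate 30 was highest for Oxt (0.746, at 1.302 CPM), replicate 31 lowest for the sum of neocortex markers (0.635), replicate 33 lowest for Sdhc (0.669) and highest for the sum of Y-linked transcripts (0.713, at 2.232 CPM, where all 12 libraries were from 0.997 CPM upward), and replicate 35 highest for Slc2a5 (0.644). The Y-linked sum is that of Kdm5d and Uty, since 2 of the 4 listed genes were in the deposited counts.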

How the results depend on the processing

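The number of genes with an adjusted p under 0.05 at 6M-Reg was 2, and it was 2 with RLE factors, without a filter and with length and GC correction. It was 4 with DESeq2 and its size factors, 29 with DESeq2 and the authors' normalization factors, 4 with limma, 1 with at least 10 counts in every library, 1 with the 12 libraries fitted alone, 1 with these also corrected for length and GC, and 0 without the 4 libraries low in choroid plexus markers. The last 2 settings were chosen after seeing the data. Leaving out 1 library gave 2 to 4 genes, the 4 without APOE3 replicate 3 or 6. Ndn was called in 21 of 22 alternatives (log2 fold change from -0.91 to -0.81, adjusted p from 5.56e-08 to 0.0595) and H2ac20 in 15 of the 19 that gave it a value (adjusted p up to 0.825). The 961 genes higher at an unadjusted p under 0.05 became 606 with the 12 libraries alone, 493 with these corrected, and 609 to 1135 when a library was left out, the fewest without APOE4 replicate 32. The 899 lower genes became 506, 547 and 570 to 1109 in that order, the fewest without APOE3 replicate 4. For the difference from the other stages, the adjusted count of 0 became 1 with DESeq2 under either set of factors and stayed 0 to 0 when a library was left out, and the unadjusted count of 1454 ran from 1072 to 1753. The cause of these moves was not tested. The difference in mitochondrially encoded share turned its sign without APOE3 replicate 4 (exact permutation p = 0.976) and APOE4 replicates 30 (p = 0.974) and 34 (p = 0.81), as did the share of the 100 most abundant genes without APOE3 replicate 4 (p = 0.942). With 1 library left out, these p ran from 0.465 to 0.989 and from 0.433 to 0.97. Over 28 named genes, 576 values under alternatives kept direction and side of the threshold, 21 gained and 5 lost significance, and 0 turned. No paired analysis was possible because the library numbers differ between the genotypes and tie no animals together. Depth, 14637884 to 38324719 reads per library, leaves genes below 1 CPM imprecise.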
